A study of Mus musculus with 45 samples.

Results

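Early nuclei are the smallest of the 3 classes that the authors assigned to single nuclei of Ter119+ erythroblasts of the mouse. All nuclei whose class was given as Early were taken, 708 of 34073, against 15613 of the class Int and 17752 of the class Late. The nuclei came from 3 Stag2 WT and 3 Stag2 KO libraries, each the chromatin accessibility (ATAC) library of a 10x Genomics multiome preparation. Both genotypes had received pIpC, and cells were taken 6 to 8 weeks after its last dose, so that the WT group carries the same exposure. The labels do not name the promoter that drives the deletion, the number or age of the animals, or whether the replicates are separate animals. The p-values below therefore measure the spread between these libraries.

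Red cell precursors begin as progenitors that carry the receptor Kit and the transcription factor Gata2. As they mature, Gata1 takes the place of Gata2 at many shared sites, Kit is shut down, and the genes for globin, heme synthesis and the membrane skeleton become active. Ter119 is a surface antigen of the red cell lineage that appears during this maturation. The protein made from Stag2 belongs to cohesin, a ring-shaped complex that extrudes chromatin loops. What was measured here is a gene score, a signal that sums ATAC fragments around a gene. It reports accessibility and not expression, and neighbouring genes share fragments.

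The Early nuclei were spread unevenly over the libraries. WT replicates 1, 2 and 3 held 102, 235 and 20 of them, which were 1.49% (95% Wilson interval 1.23% to 1.80%), 4.04% (3.56% to 4.58%) and 0.286% (0.185% to 0.442%) of their nuclei. KO replicates 1, 2 and 3 held 310, 25 and 16, or 6.38% (5.73% to 7.11%), 0.541% (0.367% to 0.798%) and 0.325% (0.200% to 0.527%). The shares of both genotypes overlapped, and 1 library of each genotype held most of its Early nuclei. The mean share over 3 libraries was 1.94% ± 1.92 (SD) for WT and 2.42% ± 3.44 (SD) for KO, a difference below the spread between replicates (exact permutation test, two-sided, p = 0.80, where 3 against 3 cannot give less than 0.1). The difference of 0.479 percentage points changed sign when KO replicate 1 (-1.50) or WT replicate 3 (-0.346) was left out. The Early nuclei of a library held 710876 to 13488626 fragments in all. The intervals cover counting error only. Comparisons between classes use the 3 libraries with at least 50 Early nuclei, WT replicates 1 and 2 and KO replicate 1. The smallest of these held 102 Early nuclei, and the largest library left out held 25.

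The class coincided with a cluster. Of the 708 Early nuclei, 689 lay in the authors' cluster C7, which held 43 Int and no Late nuclei, and 15 lay in C9, 3 in C8 and 1 in C1. How the authors set the classes is not given in the sources used here. If they were set from the same accessibility values, then differences in gene score between Early nuclei and the rest describe the class and are no independent evidence for it. Among the 708 Early nuclei, 35 carried a barcode sequence that a nucleus of another library also carried, and in 2 of them that other nucleus was Early too. Among all 34073 nuclei, 1478 shared a barcode sequence with another library.

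The markers given for the class, Gata2, Kit, Spi1 and Cd34, had higher scores in Early than in Int and Late nuclei over the 3 libraries compared, by very different amounts and for Cd34 under some scalings only. Gata2 (6, 88193891 to 88207032, plus strand; positions are on mm10) encodes a GATA factor of stem and progenitor cells. Its score, in profiles rescaled to a sum of 1000000, was 116, 116 and 104 in the Early nuclei of WT replicates 1, 2 and 3 and 137, 146 and 128 in those of KO replicates 1, 2 and 3. In Int nuclei of the same libraries, in the same order, it was 21.2, 24.3, 17.4, 54.0, 48.2 and 48.2. The classes were fully apart in all 6 libraries. Over the 3 libraries compared, the level was 123 ± 12.2 in Early, 33.2 ± 18.2 in Int and 17.8 ± 10.1 in Late nuclei (SD, n = 3), and Early exceeded Int by 1.98 on the log2 scale (SE 0.17, limma adjusted p = 1.42e-06), or 3.94-fold. All log2 differences are of this score plus a pseudocount of 1, so low genes changed by more than the value printed.

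Kit (5, 75574987 to 75656722, plus strand), the receptor for stem cell factor, had scores of 61.1, 67.0 and 49.7 in the Early nuclei of the WT libraries and 66.1, 64.5 and 59.5 in those of the KO libraries. The Int nuclei lay between 13.9 and 17.6 and the Late nuclei between 4.81 and 8.62. No Early value overlapped them. The log2 difference was 1.98 against Int (SE 0.10, limma adjusted p = 4.88e-08) and 3.25 against Late (SE 0.10, 5.53e-10), so that the level fell stepwise from Early to Int to Late.

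Spi1 (2, 91096678 to 91115759, plus strand) encodes PU.1, a factor of myeloid cells and early progenitors. It had scores of 26.6, 25.2 and 26.9 in WT and 31.3, 13.6 and 26.7 in KO Early nuclei. In the library with the low value, KO replicate 2 with 25 Early nuclei, the Int nuclei scored higher, at 14.8. Over the 3 libraries compared the log2 difference from Int was 1.10 (SE 0.11, adjusted p = 4.82e-06).

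Cd34 (1, 194938821 to 194961292, plus strand), a sialomucin of stem and progenitor cells, was the weakest of the 4 markers. Its scores were 15.4, 15.0 and 13.6 in WT and 16.7, 13.2 and 24.1 in KO Early nuclei, against 9.84 to 12.9 in Int nuclei. The log2 difference from Int was 0.43 (SE 0.12, limma adjusted p = 0.00661), and 0.07 (adjusted p = 0.777) in nuclei matched for depth. It turned to -0.09 (adjusted p = 0.530) when the profile of each class in each library was centred on its median gene. Gata2, Kit and Spi1 remained called in both settings, with log2 differences of 1.21, 1.62 and 0.69 in nuclei matched for depth. The match was incomplete here and below. In WT replicates 1 and 2 and KO replicate 1 the matched Int nuclei had medians of 34280, 29544 and 28364 fragments. The Early nuclei of these libraries had medians of 43844, 41018 and 44046.

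**Figure D1:**
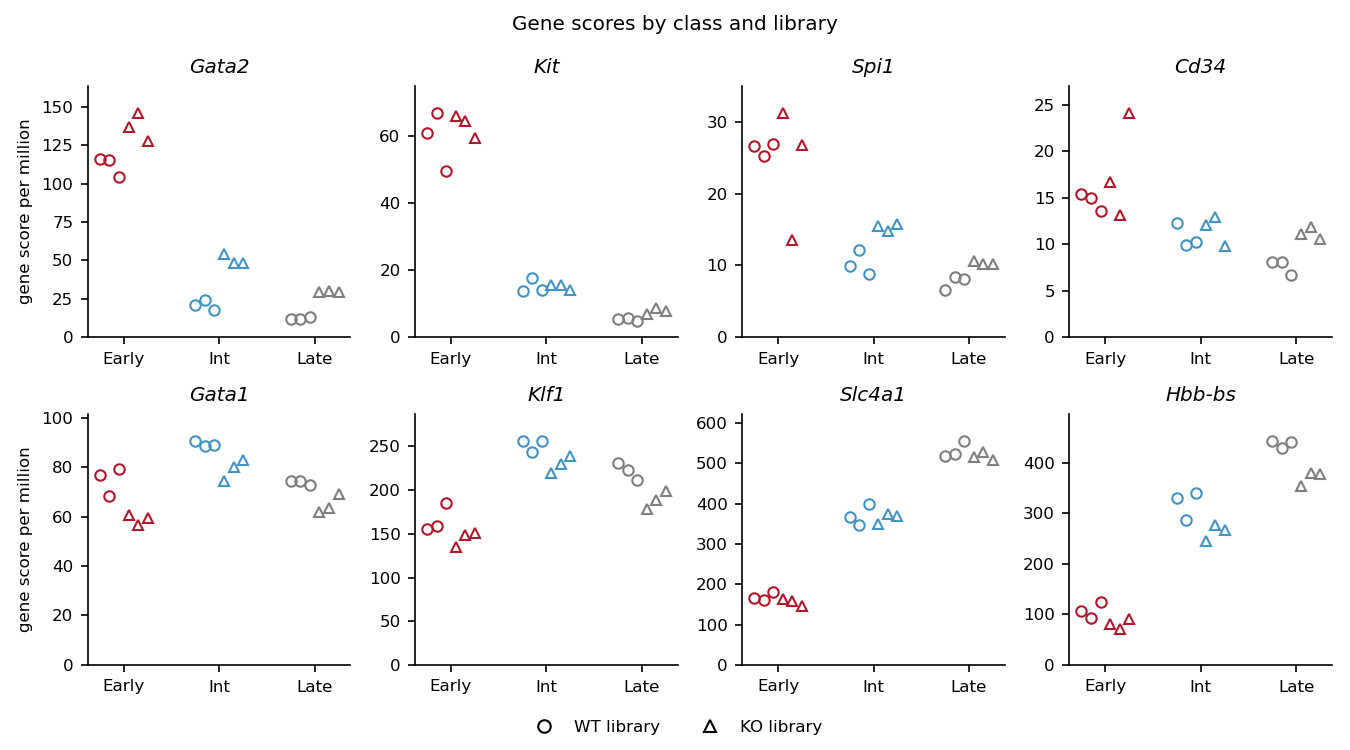
Gene score per 1000000 (y axis, linear, from 0) of 8 genes in the Early, Int and Late nuclei of each library; circles are WT and triangles KO libraries, and each point is the mean over the nuclei of 1 library. Gata2 and Kit are high in Early and low in Int and Late nuclei of all 6 libraries, Slc4a1 and Hbb-bs rise from Early to Late, and Gata1 and Klf1 are highest in Int.

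Early nuclei also differed from the rest in depth and in the shape of their signal. The median Early nucleus had 38126 to 53468 fragments, the median Int nucleus 10121 to 14998 and the median Late nucleus 5693 to 6812, with no overlap between libraries of different classes. Enrichment at transcription start sites had a library median of 19.7 ± 1.88 in Early and 32.1 ± 2.02 in Int nuclei (SD, n = 6 libraries). The share of fragment ends in peaks was 48.7% ± 3.39 against 56.9% ± 2.57, and the nucleosome ratio, in which longer fragments that span nucleosomes count against short ones, was 1.15 ± 0.149 against 0.830 ± 0.0779. Each of these 4 measures differed in the same direction in 6 of 6 libraries (exact sign-flip test over libraries, two-sided, p = 0.031, the smallest that 6 pairs allow, and 0.0391 after adjustment over 5 measures). The doublet score, the fifth, had a median of 0 in the Int nuclei of every library and of 0, 0.555, 0, 0.841, 5.89 and 0 in the Early nuclei of WT replicates 1 to 3 and KO replicates 1 to 3 (exact p = 0.25, adjusted 0.25). Only 3 libraries differed in this median, so the test could not give less than 0.25 and decides nothing. Above the 90th percentile of their library's doublet scores lay 31.4% of the Early nuclei of WT replicate 1, 26.4% of WT replicate 2 and 27.7% of KO replicate 1. The part of depth, background and doublets in the differences below was not tested apart from the settings named beside them.

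Most genes differed between Early and Int nuclei, and the balance of directions depended on the scaling and on the filter for low scores. Of 18639 genes tested, 9082 were higher in Early (48.7%) and 4802 lower (25.8%; limma, adjusted p under 0.05). The median log2 difference of all genes was 0.20. Centring the profile of each class in each library on its median gene moved it to -0.31, with 3794 genes called higher and 10085 lower. Quantile normalization moved it to -0.03, with 5997 higher and 6914 lower. In nuclei matched for depth the median was 0.05, with 4688 higher and 3572 lower. Among 11497 genes with a mean of 20 or more it was 0.07, with 5037 higher and 3966 lower. Against Late nuclei 11778 genes were higher in Early (63.2%) and 4476 lower (24.0%), with a median of 0.56, where median centring gave 5012 and 9241 with a median of -0.24 and quantile normalization 5887 and 7130. With a mean of 20 or more, 5311 genes were higher than in Late and 4406 lower, with a median of 0.08. In both comparisons of the main fit 8241 genes were called higher in Early and 3388 lower. Differences of 2-fold or more against Int numbered 2190 genes higher (11.7%) and 45 lower (0.241%). These counts were 555 and 190 in nuclei matched for depth, 844 and 652 under quantile normalization, and 363 and 1949 under median centring, where most were downward.

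The 10 genes highest in Early against Int by the naming rule had different known roles. Dlx1, Nkx1-2, Hoxa9 and Shox2 encode homeobox factors, Cbx8 a chromodomain subunit of Polycomb repressive complex 1, and Hic2 a zinc finger repressor. The others were Chpf, an enzyme of chondroitin synthesis, Smad7, an inhibitor of TGF-beta signalling, Itga5, the alpha chain of the fibronectin receptor, and Chrm4, a muscarinic receptor. Their log2 differences lay between 2.23 for Shox2 and 2.50 for Dlx1. In nuclei matched for depth all 10 remained called, between 1.47 for Chrm4 and 1.94 for Hoxa9.

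Hoxa9 (6, 52223097 to 52227370, minus strand), a homeobox factor of stem and progenitor cells, had scores of 40.9, 49.0 and 23.5 in WT and 51.3, 73.2 and 38.7 in KO Early nuclei. In the 3 libraries compared it had 6.85, 7.74 and 11.0 in Int and 2.96, 3.38 and 5.43 in Late nuclei. Every Early value lay above every one of these. The log2 difference was 2.35 against Int (SE 0.12, adjusted p = 5.70e-08), and 11 of the 12 genes tested that start within 100 kb were also called higher, most of them of the same HoxA cluster. Cbx8 (11, 119038436 to 119040913, minus strand) had 84.5, 101 and 54.8 in WT and 126, 111 and 130.3 in KO Early nuclei, against 11.2, 20.6 and 25.8 in Int nuclei. Its neighbour Cbx2, also a Polycomb gene, was higher in Early by 1.69 on the log2 scale. Shared fragments around such clusters mean that the genes of one locus are not separate observations.

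The lowest genes in Early against Int were led by both adult globin loci. Hbb-bs (7, 103826523 to 103827928, minus strand), an adult beta globin gene, had scores of 106, 93.6 and 124 in WT and 80.6, 71.4 and 91.6 in KO Early nuclei. Int nuclei scored 331, 288 and 340 in WT and 246, 276 and 266 in KO, and Late nuclei lay higher still. The classes did not overlap. Early lay below Int by 1.61 on the log2 scale (log2 difference -1.61, SE 0.04, limma adjusted p = 2.83e-09), a ratio of 0.327. The difference was -1.28 in nuclei matched for depth.

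Hba-a2 (11, 32296492 to 32297310, plus strand), an adult alpha globin gene, had 62.1, 47.0 and 64 in WT and 46.4, 48.5 and 102 in KO Early nuclei, where the high value came from the 16 nuclei of KO replicate 3. The log2 difference from Int was -1.49 (SE 0.06, adjusted p = 2.55e-08). Its near-identical copy Hba-a1 gave -1.35, and how fragments were divided between the copies is not given in the sources used here. The embryonic alpha gene Hba-x did not pass the test (0.12, adjusted p = 0.424), and the embryonic beta gene Hbb-y was lower in Early, by -1.10 on the log2 scale.

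The other genes among the 6 lowest were AW011738 (-1.27), Bloodlinc (-1.27), a long noncoding RNA gene that neighbours Slc4a1, Dnajb3 (-1.12) and Dpp6 (-1.11). AW011738 starts within 100 kb of Isg15, which was lower in Early by -1.16. All 6 remained called in nuclei matched for depth and under median centring.

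**Figure D2:**
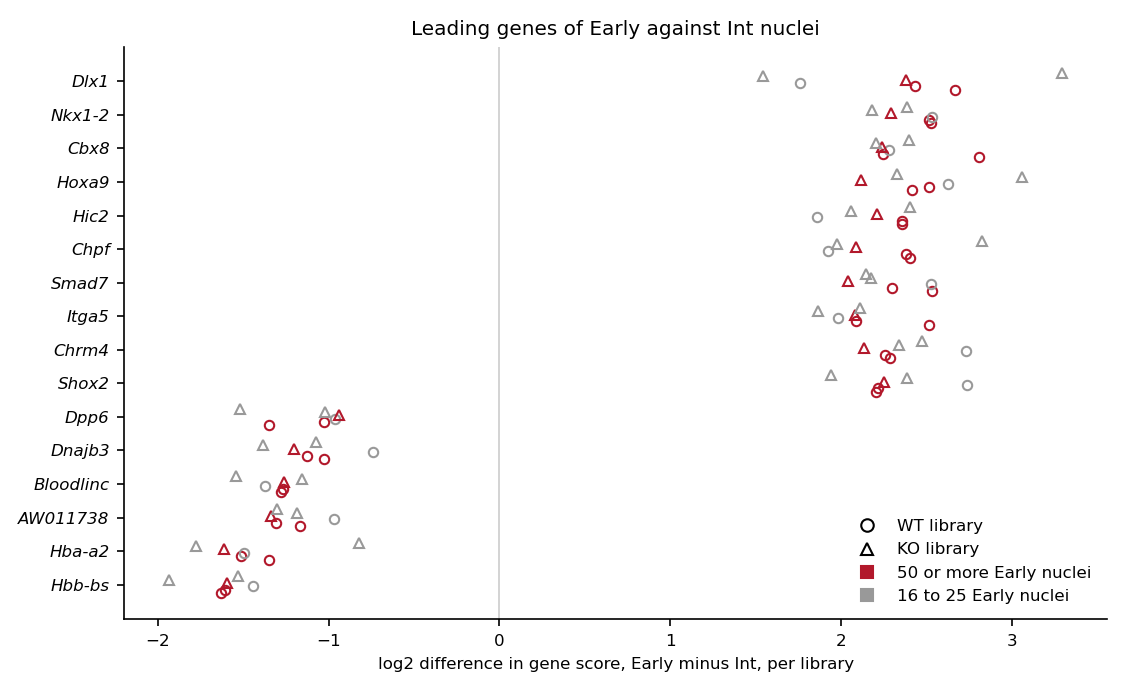
Log2 difference in gene score between the Early and Int nuclei of the same library (x axis) for the 10 highest and 6 lowest genes picked by the naming rule; circles are WT and triangles KO libraries, red where 50 or more Early nuclei were present and grey for the 3 libraries with 16 to 25. Every library falls on the same side of 0 for all 16 genes, those not used for choosing them included.

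Sequences upstream of the start were set beside these differences, since the globin genes are classical targets of GATA factors. The 250 bases before the start of each gene, 5′ to 3′ on the gene's strand, come from RefSeq on GRCm38.p6, with each match to AGATAA or TGATAA on either strand in capitals. Hbb-bs and Hba-a1 are shown as genes low in Early nuclei, and Gata2 and Kit as the class markers.
Hbb-bs, chr7:103827929-103828178, minus strand: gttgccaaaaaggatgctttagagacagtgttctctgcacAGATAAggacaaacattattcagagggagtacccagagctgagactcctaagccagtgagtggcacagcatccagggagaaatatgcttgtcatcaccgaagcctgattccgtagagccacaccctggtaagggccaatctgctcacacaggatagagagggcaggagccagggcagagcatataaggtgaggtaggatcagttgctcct
Hba-a1, chr11:32283422-32283671, plus strand: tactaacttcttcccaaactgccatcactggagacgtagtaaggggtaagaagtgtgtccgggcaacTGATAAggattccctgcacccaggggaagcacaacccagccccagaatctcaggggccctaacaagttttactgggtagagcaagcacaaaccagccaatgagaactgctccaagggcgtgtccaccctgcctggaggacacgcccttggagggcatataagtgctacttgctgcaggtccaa
Gata2, chr6:88193641-88193890, plus strand: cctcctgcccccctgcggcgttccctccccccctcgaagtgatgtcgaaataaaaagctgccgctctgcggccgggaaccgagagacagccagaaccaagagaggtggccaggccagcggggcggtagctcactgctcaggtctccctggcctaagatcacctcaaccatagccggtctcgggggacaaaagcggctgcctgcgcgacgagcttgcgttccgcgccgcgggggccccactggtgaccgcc
Kit, chr5:75574737-75574986, plus strand: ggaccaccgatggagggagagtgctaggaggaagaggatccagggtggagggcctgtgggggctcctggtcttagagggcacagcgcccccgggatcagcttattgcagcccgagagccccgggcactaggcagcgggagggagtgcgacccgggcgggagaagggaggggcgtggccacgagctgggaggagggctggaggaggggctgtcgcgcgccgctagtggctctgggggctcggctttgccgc
The match lay 205 bases before the start in Hbb-bs and 178 bases before it in Hba-a1, and neither Gata2 nor Kit held one in this window. The 2 globin stretches held 2 and 4 CG pairs, against 22 in that of Gata2 and 17 in that of Kit. Among other genes higher in Early, the stretch of Hoxa9 held 3 and that of Cd34 held 6. Over all genes tested, 13779 had an upstream sequence and 10.5% of them held a match. The share was 10.5% of 1549 genes that were 2-fold or more higher in Early than in Int, and 27.8% of 36 genes 2-fold or more lower, which is 10 genes. The lower group came from 45 genes, a count of 38 to 81 with 1 library left out, for which the share was not computed. The median number of CG pairs was 13 over all, 11 in the higher and 4 in the lower group. The motif GGAAGT, bound by ETS factors such as PU.1, was present on either strand in 21.8% over all, 19.3% of the higher and 16.7% of the lower group. A match is a run of letters and not a measured site.

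Against Late nuclei, Xpo7 was the lowest gene by the naming rule. This exportin gene (14, 70654246 to 70766628, minus strand) had scores of 53.5, 53.5 and 45.5 in WT and 56.4, 54.4 and 84.1 in KO Early nuclei. Int nuclei of the 3 libraries compared scored 66.9, 61.4 and 63.0 and Late nuclei 290, 324 and 337. Early and Int thus lay close together and Late far above, with log2 differences of -0.22 and -2.52. Hba-a2 (-2.41), Tmcc2 (-2.14), Hbb-bs (-2.12), Tcp11l2 (-1.81) and Bcl2l1, an inhibitor of apoptosis (-1.78), made up the rest. The high end held Cbx8 (3.64), Shox2 (3.59), Sox4 (3.45), Trib2 (3.37), Il3ra, the alpha chain of the interleukin-3 receptor (3.36), Hoxa9 (3.31), Pax6 (3.30), Nr4a2 (3.29), Cebpd (3.26) and Kit (3.25).

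Lists of genes were then counted. Of 24 stem and progenitor genes tested, 21 were higher in Early than in Int and 1 lower, with a median log2 difference of 0.75, beside 48.7% higher, 25.8% lower and a median of 0.20 over all genes. Median centring left 11 higher and 4 lower, where 3794 and 10085 of all 18639 genes were called. Matching for depth left 12 and 1, where 4688 and 3572 of all 19399 genes were called. Beyond the genes above, Sox4 (1.92), Hhex (1.86) and Etv6 (1.45), all transcription factors, differed most, and Myb was higher by 1.04. Runx1, the master factor of definitive blood formation, was higher by 0.60 against Int (SE 0.05, adjusted p = 5.10e-07) and by 0.09 after median centring (adjusted p = 0.156). The exception was Lyl1, a helix-loop-helix factor, lower by -0.70.

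Erythroid progenitor genes were called in both directions. Of 19 tested, 6 were higher and 9 lower in Early than in Int, with a median of -0.06, beside 48.7% higher, 25.8% lower and a median of 0.20 over all genes. Quantile normalization gave 10 higher and 7 lower with a median of 0.14, and median centring 5 and 13 with a median of -0.57. Over all 18639 genes these settings gave 5997 and 6914, and 3794 and 10085. Trib2 (1.94), Mt2 (1.91), Myc (1.58), Vim (1.15), Car1 (1.11) and Ldb1 (0.52) were the higher ones, of which Ldb1 was at 0.01 (adjusted p = 0.931) after median centring. The lower ones included Nfe2 (-0.87), Icam4 (-0.70) and Klf1, the erythroid Krüppel-like factor. Klf1 had scores of 155, 160 and 186 in WT and 135, 148 and 151 in KO Early nuclei and 220 to 257 in the Int nuclei, a log2 difference of -0.67 (SE 0.05, adjusted p = 2.25e-07). Gata1 differed from Int by -0.30 (SE 0.05, adjusted p = 0.000267). Against Late it differed by -0.03 (adjusted p = 0.573), and by -0.83 (adjusted p = 6.97e-09) after median centring. Tal1, the partner of GATA factors in erythroid complexes, differed by 0.04 from Int (adjusted p = 0.462), by 0.34 under quantile normalization (3e-05) and by -0.47 under median centring (3.44e-06), so that its direction rests on the scaling.

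Genes of maturation were lower almost throughout. Of 27 erythroid maturation genes tested, 24 were lower and 1 higher in Early than in Int, with a median of -0.56, beside 25.8% lower over all genes. After matching for depth 25 were lower and 1 higher, where 3572 and 4688 of all 19399 genes were called. Slc4a1 (11, 102348820 to 102365281, minus strand), the anion exchanger band 3, had scores of 167, 160.0 and 182 in WT and 163, 157 and 147 in KO Early nuclei, against 347 to 399 in Int nuclei of all 6 libraries. Its log2 difference was -1.11 (SE 0.03, adjusted p = 8.58e-09). The higher gene was Cited2 (1.43), a transcriptional coregulator, and Ank1 (-0.11) and Foxo3 (-0.02) did not pass, though both were lower after median centring (-0.62 and -0.53). Of 11 heme synthesis genes, 10 were lower and 1 higher against the same share of all genes, with a median of -0.49. Alas2, the erythroid enzyme of the first step, was lowest at -1.01 (SE 0.05, adjusted p = 4.78e-08). Cpox was the higher one at 0.60, but at 0.09 (adjusted p = 0.402) after median centring. In that setting 10 genes were lower and none higher, where 10085 and 3794 of all 18639 genes were called.

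Of 29 genes of DNA replication and mitosis, 15 were lower and 5 higher in Early than in Int, with a median of -0.16, beside 25.8% lower, 48.7% higher and a median of 0.20 over all genes. Median centring gave 25 lower and 0 higher, where 10085 and 3794 of all 18639 genes were called. Matching for depth gave 7 and 1, where 3572 and 4688 of all 19399 genes were called. Aurka (-0.65), a mitotic kinase, and Ccna2 (-0.63), cyclin A2, differed most downward and Tyms (0.78) and Rrm2 (0.72), enzymes of nucleotide supply, most upward. After median centring Tyms (0.27, adjusted p = 0.0570) and Rrm2 (0.21, 0.113) did not pass. Against Late, 12 were higher and 13 lower, beside 63.2% and 24.0% of all genes. Median centring gave 4 and 23, where 5012 and 9241 of all 18639 genes were called. Quantile normalization gave 17 and 6, where 5887 and 7130 of all genes were called, so that the balance rests on the scaling. Of 15 cohesin and CTCF genes, 5 were higher and 7 lower than in Int, beside 48.7% and 25.8% of all genes. Median centring gave 0 and 12, where 3794 and 10085 of all 18639 genes were called. Matching for depth gave 3 and 3, where 4688 and 3572 of all 19399 genes were called. Stag1, the paralogue of Stag2, differed by 0.10 from Int (adjusted p = 0.115), by -0.41 (8.41e-05) after median centring, and by 1.11 from Late (SE 0.06, adjusted p = 8.37e-09; 0.31 after median centring), with scores of 151, 153 and 138 in Early and 73.8, 74.0 and 56.3 in Late nuclei of the 3 libraries compared.

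**Figure D3:**
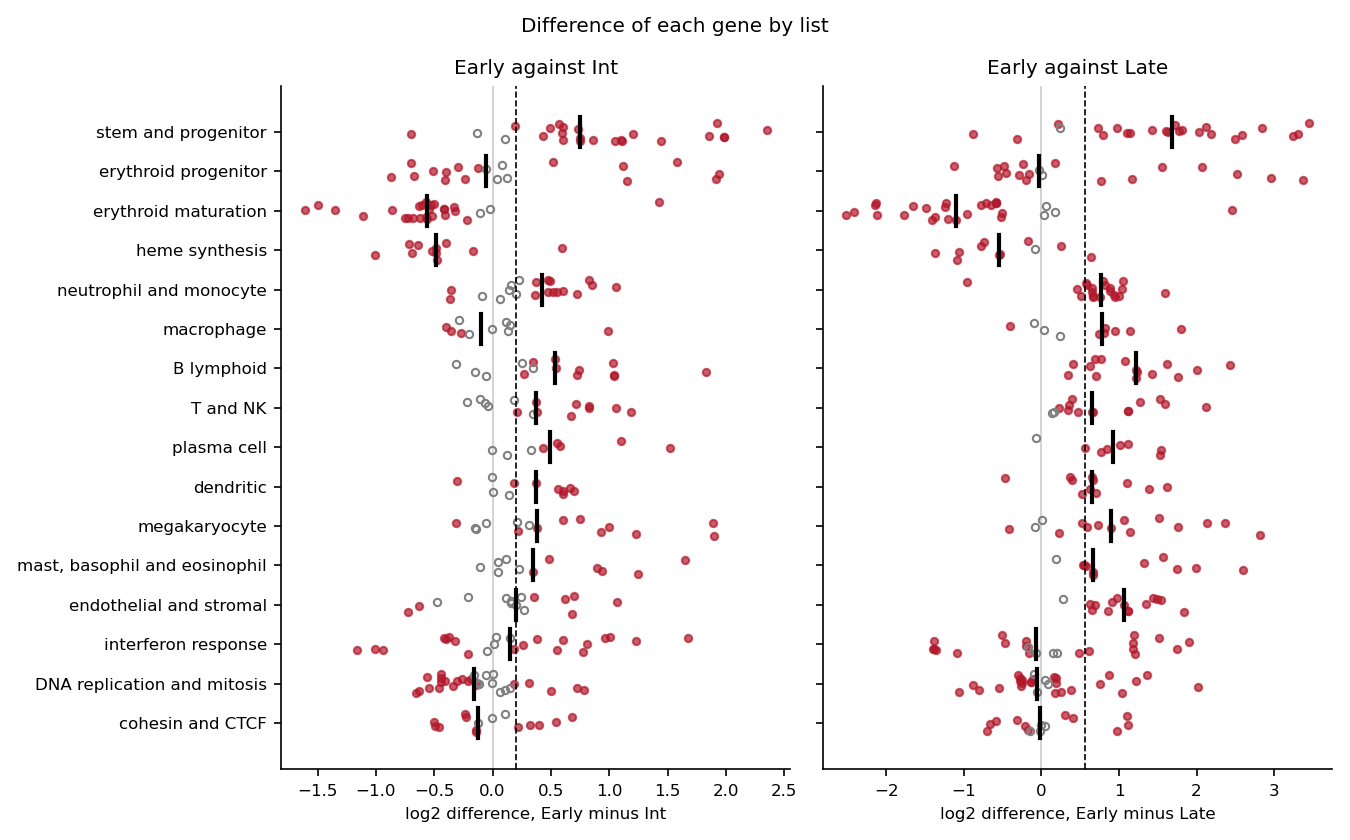
Log2 difference of every tested gene of 16 lists (x axis), Early minus Int on the left and Early minus Late on the right; filled red points passed the limma test, open grey points did not, black bars are list medians and the dashed line is the median of all genes. The stem and progenitor list lies to the right of the dashed line and the erythroid maturation and heme synthesis lists to its left in both panels, while lists of other lineages lie at or to the right of it, with macrophage genes to its left against Int.

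Lists of other lineages were examined because a rare class of a sort can hold other cells. Against Int, 12 of 20 neutrophil and monocyte genes, 10 of 15 B lymphoid, 9 of 15 T and NK, 9 of 15 megakaryocyte, 6 of 11 mast, basophil and eosinophil, 7 of 11 dendritic, 5 of 8 plasma cell and 5 of 15 endothelial and stromal genes were higher in Early, and 1 of 10 macrophage genes. Over all genes 48.7% were higher and 25.8% lower. Called lower were 2 neutrophil and monocyte, 1 megakaryocyte, 1 dendritic, 2 endothelial and stromal and 3 macrophage genes. None of the B lymphoid, T and NK, plasma cell or mast, basophil and eosinophil genes was called lower. The medians of these lists lay between -0.10 for macrophage and 0.53 for B lymphoid genes, beside 0.20 over all genes. Median centring turned several of them below 0. In nuclei matched for depth, 6 of the B lymphoid genes, 3 of the neutrophil and monocyte genes, 4 of the T and NK genes and 5 of the megakaryocyte genes were called higher, beside 4688 of all 19399 genes. Against Late, 15 of 15 B lymphoid and 19 of 20 neutrophil and monocyte genes were higher, beside 63.2% of all genes. After median centring 8 and 2 of them were higher, where 5012 of all 18639 genes were. Some defining genes of these lineages passed the test and others did not. Pf4 (1.90) and Gp5 (1.88), of platelets, and Rag2 (1.83) and Ms4a2 (1.65), of lymphocyte and mast cell precursors, were higher. Gp9 (-0.15), Pax5 (0.25), Cd3e (0.35) and S100a8 (0.20) did not pass the test. Mpo (0.52) and Elane (0.85), granule proteins of myeloid precursors, were higher, Mpo by 0.01 (adjusted p = 0.947) after median centring. Cebpa, a factor of the myeloid lineage, differed from Int by 0.49 (SE 0.16, adjusted p = 0.0173) and by 0.05 in nuclei matched for depth (adjusted p = 0.869) and by -0.02 after median centring (0.892). The part of other cell types in the class differences was not tested.

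Single nuclei were then described by the summed score of each list, on the authors' scale in which a nucleus sums to 10000. The erythroid maturation sum had a library median of 29.8 to 36 in Early, 43.4 to 49.3 in Int and 62.4 to 70.1 in Late nuclei. The stem and progenitor sum had 15.0 to 18.3, 10.1 to 11.3 and 9.65 to 10.1. Neither sum overlapped between Early and Int libraries. In the middle range, the erythroid progenitor sum was 22.4 to 28.2 in Early and 24.6 to 28.3 in Int nuclei. Among Early nuclei the lowest erythroid progenitor sum was 11.9 and the 5th percentile 18.9. A sum above 0 does not tell the lineage of a nucleus, as Late nuclei had stem and progenitor medians of 9.65 to 10.1. Among sums of other lineages, the highest library medians were 8.08 for megakaryocyte, 5.55 for neutrophil and monocyte, 4.725 for dendritic, 4.24 for B lymphoid and 3.91 for T and NK genes. Sums of different lists cannot be ranked, since the lists differ in size and genes. Each of these sums also had a lower median in Int nuclei of the same library. In WT replicates 1 and 2 and KO replicate 1 the B lymphoid sum was 2.81, 3.24 and 3.37 in Early and 1.58, 1.77 and 2.12 in Int nuclei. The macrophage sum was 2.90, 2.85 and 3.04 in Early and 3.11, 3.25 and 3.09 in Int nuclei.

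The share of Early nuclei beyond the range of Int nuclei tells how far single nuclei stood apart. Above the 95th percentile of the Int nuclei of their library for the stem and progenitor sum lay 24.5% of Early nuclei in WT replicate 1, 33.2% in WT replicate 2 and 50.3% in KO replicate 1. Below the 5th percentile for erythroid maturation lay 58.8%, 40.4% and 61.6%. For T and NK genes 1.96%, 4.68% and 6.45% lay above the 95th percentile, and for megakaryocyte genes 2.94%, 3.40% and 2.58%. Int nuclei had fewer fragments, and the part of depth in these shares was not tested. Within the Early nuclei of a library, the stem and progenitor sum and the erythroid maturation sum had a Pearson correlation of -0.494 over 102 nuclei of WT replicate 1, -0.352 over 235 of WT replicate 2 and -0.200 over 310 of KO replicate 1. The nuclei of a library share its preparation, and sums that are parts of one fixed total tend to oppose each other.

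**Figure D4:**
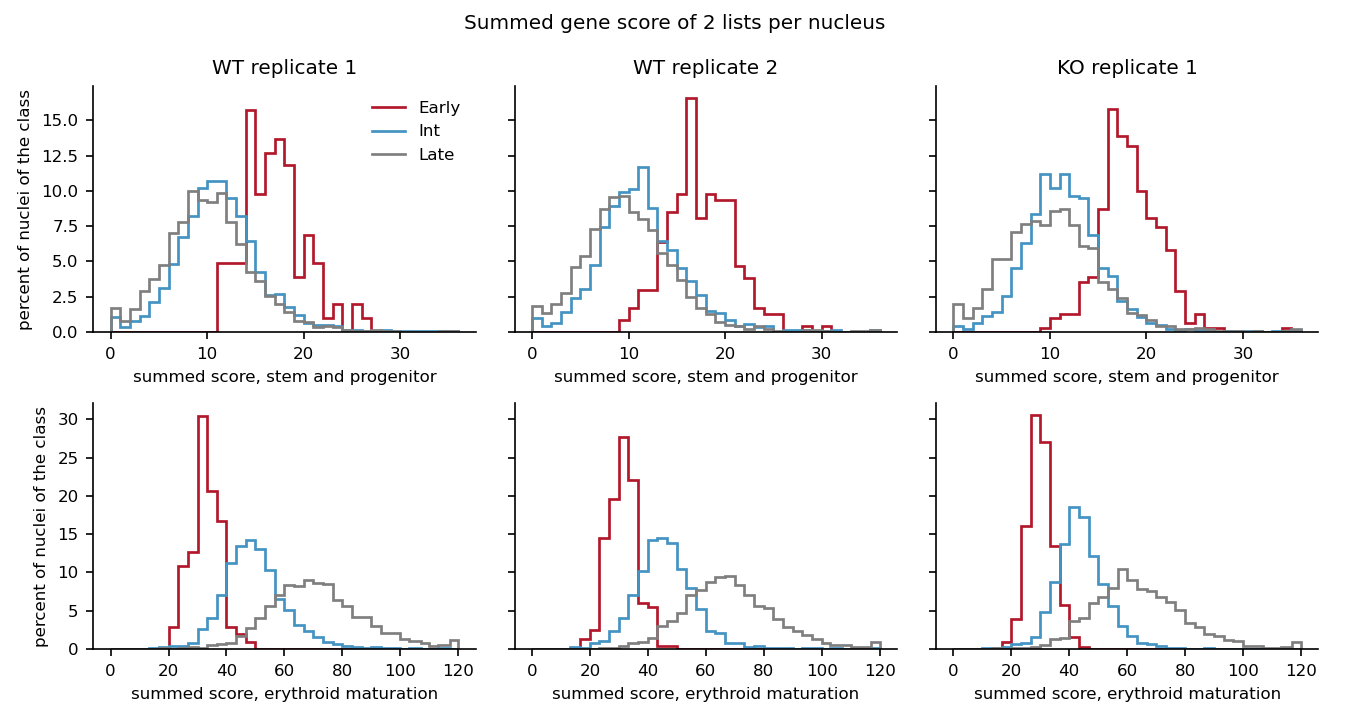
Distribution over single nuclei of the summed gene score of the stem and progenitor list (top) and the erythroid maturation list (bottom), in percent of the nuclei of a class (y axis), for the 3 libraries with 50 or more Early nuclei; sums beyond the axis are counted in the last bin. Early nuclei lie to the right of Int nuclei for stem and progenitor genes and to their left for erythroid maturation genes, with library medians of 29.8 to 32.6 for the latter.

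Genotype within the Early nuclei was compared over all 6 libraries, each weighted by how closely it followed the fit. Of 19174 genes tested, 1049 were higher in KO (5.47%) and 523 lower (2.73%; limma with sample weights, adjusted p under 0.05). Median centring gave 941 and 1360. The weights ranged from 4.21 for WT replicate 1 to 0.215 for WT replicate 3, so that the 3 libraries with few Early nuclei counted little. The count rested on this weighting. With equal weights 14 genes were called, and leaving out 1 library gave 13 without WT replicate 1, 90 without WT replicate 2, 938 without WT replicate 3, 16 without KO replicate 1, 108 without KO replicate 2 and 224 without KO replicate 3. All 14 genes called with equal weights were also called with sample weights. All 3 KO libraries were above, or all 3 below, every WT library for 20.4% of the genes tested.

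Stag2 itself had scores of 65.5, 68.1 and 62.0 in WT and 72.4, 77.8 and 84.2 in KO Early nuclei, a log2 difference of 0.16 (SE 0.07, limma adjusted p = 0.185). A score summed around a gene does not show whether part of it was deleted. Stag1 differed by -0.09 (SE 0.07, adjusted p = 0.403).

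The genes highest in KO Early nuclei were Apol11a and Apol11b, of the apolipoprotein L family, Hoxb4, a homeobox factor of stem cells, Gmpr, guanosine monophosphate reductase, and Fli1, an ETS factor of the megakaryocyte lineage. Apol11a (15, 77508271 to 77517319, plus strand) had scores of 3.57, 4.79 and 4.49 in WT and 28.8, 36.2 and 29.2 in KO Early nuclei. The genotypes were far apart. The WT mean of 4.28 lay below the filter of 5, which the gene passed through the KO libraries. The log2 difference was 2.64 (SE 0.20, adjusted p = 1.88e-06, 0.0203 with equal weights), beside 2.75 in Int (adjusted p = 3.52e-13) and 3.04 in Late nuclei (4.46e-08).

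Gmpr (13, 45507444 to 45546386, plus strand) had 23.8, 28.7 and 25.3 in WT and 69.6, 72.0 and 71.6 in KO Early nuclei. The spread within each genotype was small beside the gap. The log2 difference was 1.44 (SE 0.10, adjusted p = 1.39e-06, 0.0122 with equal weights), and 2.44 in Int and 2.46 in Late nuclei. Fli1 (9, 32422204 to 32541452, minus strand) had 24.0, 23.2 and 8.45 in WT and 66.2, 53.2 and 54.4 in KO, a log2 difference of 1.43 (SE 0.15, adjusted p = 4.23e-05) that was not called with equal weights (0.143). It was 0.61 in Int and 1.36 in Late nuclei. Hoxb4 had 10.1, 18.4 and 6.04 in WT and 37.5, 64.4 and 29.6 in KO (1.65, SE 0.22, adjusted p = 0.000395, 0.158 with equal weights), and 4 of 10 tested neighbours within 100 kb were also called higher.

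The genes lowest in KO Early nuclei were Gpc4, a cell surface proteoglycan, Cnn3, an actin-binding calponin, Pdgfd, a growth factor, Ehf, an ETS factor, and Cebpd, a C/EBP factor. Gpc4 (X, 52053018 to 52164923, minus strand) had 48.5, 38.6 and 34.5 in WT and 15.2, 10.7 and 11.6 in KO, a log2 difference of -1.59 (SE 0.16, adjusted p = 1.60e-05, 0.0485 with equal weights). Cnn3 had 49.9, 41.3 and 37.4 against 16.1, 15.6 and 11.8 (-1.52), and Pdgfd 44.3, 37.8 and 44.5 against 14.7, 18.5 and 15.8 (-1.42). Ehf had 31.1, 28.5 and 42.5 against 10.8, 12.4 and 13.6 (-1.37), and Cebpd 53.0, 58.9 and 42.9 against 24.3, 27.9 and 24.2 (-1.10). In all 5 the genotypes did not overlap, as for 20.4% of all genes tested. With equal weights Gpc4, Cnn3 and Pdgfd were called and Ehf (adjusted p = 0.0887) and Cebpd (0.0920) were not. Without WT replicate 1 none of the 5 was called, since all 13 genes then called were higher in KO. In Int nuclei the differences were -1.26 for Gpc4, -0.82 for Cnn3, -1.03 for Pdgfd, -0.12 for Ehf (adjusted p = 0.616) and -0.84 for Cebpd.

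**Figure D5:**
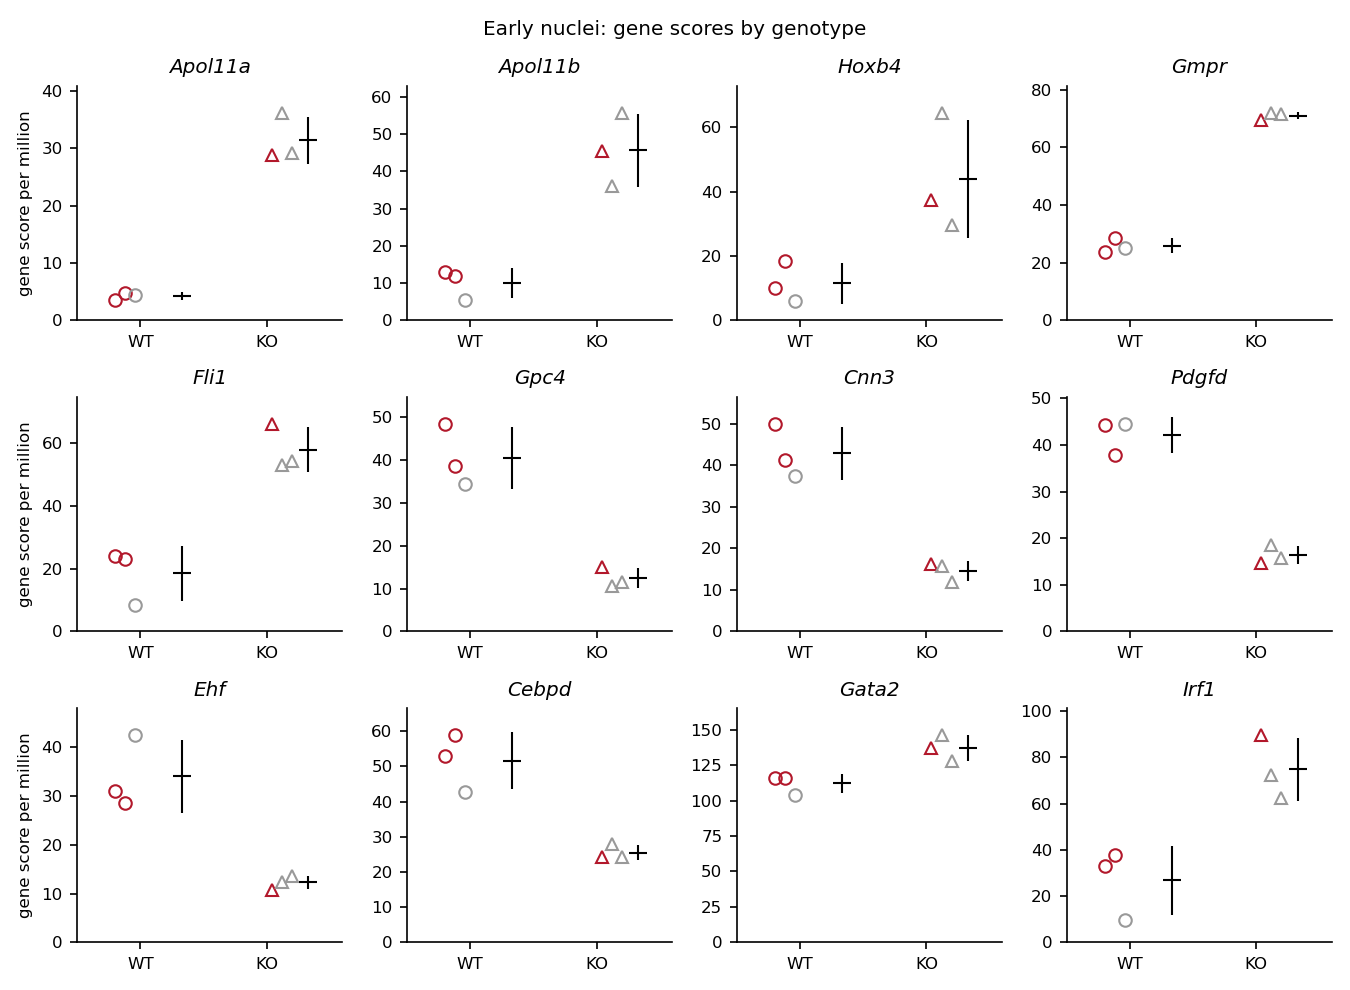
Gene score per 1000000 in Early nuclei (y axis, linear, from 0) by genotype for the 5 genes highest and 5 lowest in KO and for Gata2 and Irf1; each symbol is 1 library, red with 50 or more and grey with 16 to 25 Early nuclei, and the black bar is the mean with its SD over 3 libraries. The KO and WT symbols do not overlap in any of the 12 panels, as for 20.4% of all genes tested. The 5 highest and 5 lowest genes were picked for their difference in these same libraries. The gap is small for Gata2, at 112 in WT and 137 in KO.

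Of 23 interferon response genes tested, 7 were higher in KO Early nuclei and none lower, beside 5.47% of all genes higher, with a median of 0.25 beside 0.02 over all genes. Besides Apol11a and Apol11b, which entered the list because earlier results on these data showed them, these were Irf1 (1.34), a transcription factor of the interferon response, Oasl2 (1.09), Mx1 (1.08), Gbp2 (0.76) and Mx2 (0.75). Irf1 had 32.9, 37.8 and 9.71 in WT and 89.7, 72.2 and 62.7 in KO. The count was 7 under median centring, 4 in the 3 libraries with 50 or more Early nuclei, of which only 1 is KO and is assumed to vary like the others, and 1, Apol11a, with equal weights. Leaving Apol11a and Apol11b out, 5 of 21 were higher, and 0 with equal weights. Irf1, 1 of these 5, was also known from earlier results on these data. Of 20 erythroid progenitor genes, none was higher and 6 were lower, beside 2.73% of all genes lower (Car2, Nfe2, Gata1, Tal1, Tfrc and Zfpm1, between -0.37 and -0.19), with a median of -0.11. Median centring gave 0 and 9, where 941 and 1360 of all 19174 genes were called. With equal weights none of the 20 was called. Of 25 stem and progenitor genes, 6 were higher and 2 lower, beside 5.47% and 2.73% of all genes. Cd48 (0.81), Meis1 (0.71) and Etv6 (0.63) were highest. Median centring gave 4 and 4, where again 941 and 1360 of all 19174 genes were called. With equal weights, without KO replicate 1 or without WT replicate 1 none of the 25 was called. None of the 29 replication and mitosis genes and none of the 15 cohesin and CTCF genes was called, by the limma fit with sample weights or with equal weights.

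Summed per nucleus, the stem and progenitor list had library medians of 16.7, 17.0 and 15.0 in WT and 18.1, 18.1 and 18.3 in KO Early nuclei. The erythroid progenitor list had 25.3, 25 and 28.2 in WT and 22.7, 23.5 and 22.4 in KO. The erythroid maturation list had 32.6, 31.8 and 36 against 29.8, 30.8 and 30.9. In all 3 sums the genotypes did not overlap, as in 9 of the 16 lists in Early, 11 in Int and 14 in Late nuclei. Of the other lists, the neutrophil and monocyte, macrophage, megakaryocyte, endothelial and stromal, and interferon sums were higher in KO Early nuclei and the heme synthesis sum lower. Fragments per Early nucleus did not overlap either, with medians of 43844, 41018 and 38126 in WT and 44046, 53468 and 44204 in KO, nor did the nucleosome ratio (1.11, 1.08 and 0.935 against 1.17, 1.39 and 1.19) and the share of ends in promoters (33.8%, 33.1% and 39.5% against 30.6%, 31.3% and 33%). The part of other cell types, depth and quality in the genotype differences was not tested. Both erythroid sums were lower in the KO libraries in Int and Late nuclei too, and in Int nuclei the progenitor sum was 24.6, 25.3 and 26.0 against 28.3, 27.2 and 27.8 in WT. Every Early library lay above every Int library for the stem and progenitor sum and below for the maturation sum.

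Of the 4 class markers, Gata2 alone passed the test between genotypes in Early nuclei. Kit differed by 0.07 (SE 0.08, limma adjusted p = 0.654), Spi1 by 0.09 (SE 0.17, 0.788) and Cd34 by 0.13 (SE 0.17, 0.678). With equal weights Spi1 differed by -0.21, so that its direction rests on the weights. Gata2 was higher in KO by 0.25 (SE 0.06, adjusted p = 0.0178, 0.317 with equal weights). Gata1 differed by -0.30 (SE 0.08, adjusted p = 0.0249), Tal1 by -0.29 (SE 0.06, 0.00922) and Klf1 by -0.19 (SE 0.06, 0.0629). With equal weights none of these 3 was called. Slc4a1 (-0.04), Alas2 (-0.02), Cebpa (-0.21) and Runx1 (0.15) did not pass, and P2ry1, a purinergic receptor, was lower (-0.40, adjusted p = 0.00350, 0.265 with equal weights and 0.497 without KO replicate 1). Cebpa differed by 0.23 with equal weights, so that its direction rests on the weights.

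Whether the genotype effect itself differed between Early and Int nuclei was tested on the differences within each library. None of 18383 genes was called (0%; limma with sample weights), where 2356 had an unadjusted p under 0.05. For Gata2 the genotype effect was 0.25 in Early, 1.23 in Int and 1.21 in Late nuclei. The limma fit gave a difference of -0.95 between Early and Int (adjusted p = 0.144). For Gmpr the difference was -0.92 (adjusted p = 0.144) and for Irf1 -0.90 (0.183). When only genes with a mean score of 20 or more were tested, 211 were called. In 190 of them the signed effect in Early minus that in Int was negative. A negative difference can be a weaker rise or a stronger fall in KO Early nuclei. Gata2 (limma adjusted p = 0.00335), Gmpr (0.00255) and Irf1 (0.0256) were among the 211. Over all genes, KO and WT differed in 19.8% of the genes tested in Int and 51.4% in Late nuclei, where each library held at least 2043 nuclei.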

How the data were processed

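Gene scores of 24333 genes in 34073 nuclei were used as deposited. Per the file headers they are gene scores, and the values are a signal that the authors had scaled to a sum of about 10000 per nucleus. Cell Ranger and mm10 are named in the submitters' processing notes; the software of the scores is not given in the sources used here. The deposited table of nuclei holds counts of fragments for each nucleus as the authors gave them and scores for doublets, start site enrichment, nucleosome ratio and fragment ends in peaks, with class and cluster. That table holds its whole list of nuclei in 2 identical copies, of which 1 was used.

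The mean score over all nuclei of 1 class in 1 library made a profile, with libraries as replicates, rescaled to a sum of 1000000. Genes averaging 5 or more across the profiles of a fit were kept. Log2(score + 1) was fitted with limma 3.58.1 in R 4.3.3 (trend on the mean; two-sided tests), with Benjamini-Hochberg adjustment across every gene tested and a threshold of 0.05. Classes were compared in 9 profiles (3 libraries by 3 classes) with the library as a block. Genotype in Early nuclei was compared over 6 libraries with sample weights, and in Int and Late nuclei with equal weights. The self-test on simulated data found 100% of changes of 1 on the log2 scale between Early and Int, among 18280 genes, and 85% between genotypes in Early, among 19213 genes; for changes of 0.5 it found 90% and 37%. It altered 100 genes for each size of change, none of the lowest scores. Its noise was independent between genes, and no shift was shared by all genes. These shares need not hold for the fits above. Depth-matched nuclei were Int and Late nuclei chosen to approach the fragments of the Early nuclei of their library; the match was incomplete. Quality was compared by exact sign-flip tests over 6 libraries.

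The members, the 16 gene lists and the tests were chosen with earlier results of these data known. Named class genes passed the threshold in the fit over the 3 libraries and differed with the same sign in each library. They also had a higher class mean of at least 20 and no provisional name, and led all genes starting within 100 kb. The 10 highest and 6 lowest were named, and for genotype the 5 highest and 5 lowest. Some genes were always named. A few genes that the rule or the lists hold are not reported here. Lists were scored by counts and medians without a set test. RNA, HSPC, CUT&RUN and Hi-C samples were not analysed here. Python 3.11.15 made the tables (scipy 1.17.1, pandas 2.3.3, numpy 2.4.6), and matplotlib 3.10.9 the figures.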

Additional observations from a re-analysis of the deposited data

How the results depend on the processing

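Whether the replicate numbers of the labels pair the libraries could not be decided. The deviations of same-numbered WT and KO Early profiles correlated by 0.0545, 0.00215 and 0.0479 across 19174 genes. Those of differently numbered profiles correlated by -0.0665 to 0.0609. Profiles that average only 16 to 25 nuclei can hide a shared preparation. With the replicate block 1634 genes were called between genotypes in Early, and the difference in the share of Early nuclei, 0.479 percentage points, had an exact paired p of 0.750. Without the library as a block (no replicate block), 12091 genes were called against Int and 15300 against Late. Early against Int gave 13884 calls, 9003 with a mean of 20 or more and 8260 in depth-matched nuclei, and 11591 to 13880 when 1 library was left out. Early against Late gave 16254, 9717 with a mean of 20 or more, and 14883 to 16182 with 1 library left out. Early nuclei of cluster C7 alone gave 13937 and 16245, and leaving out Early nuclei of high doublet score, with all Int and Late nuclei kept, 13832 and 16238; the C7 and median-centring settings were chosen after seeing the data. Genotype in Early gave 1572 calls, 33 without a filter, 1005 with a mean of 20 or more, 610 under quantile normalization, 14 with equal weights, 332 in 3 libraries (with 1 KO library, assumed to vary like the WT libraries) and 13 to 938 with 1 library left out; the cause was not tested. The difference of the genotype effect gave 0 calls, 211 with a mean of 20 or more and 0 to 0 with 1 library left out. With 3 libraries no exact test of quality can pass; the differences were then 29609 fragments, -12.5 in start site enrichment, -7.90 percentage points of ends in peaks and 0.282 in nucleosome ratio. With 1 library left out they were 29208 to 31518, -12.6 to -12.2, -8.80 to -7.79 and 0.286 to 0.332, and 5 pairs cannot pass either. The share difference ranged from -1.50 without KO replicate 1 to 1.53, and was -0.346 without WT replicate 3. Of the genes called in both settings, 1150 turned sign under median centring and 601 under quantile normalization against Int, and 2410 and 2380 against Late. Of the genes always named, signs turned under median centring against Int for Cd34 (-0.09), Tal1 (-0.47), Cebpa (-0.02), Stag2 (-0.29) and Stag1 (-0.41), and against Late for Cd34 (-0.06), Tal1 (-0.62), Cebpa (-0.15), Runx1 (-0.59) and Stag2 (-0.75). Under quantile normalization they turned against Int for Cd34 (-0.11) and Cebpa (-0.19) and against Late for Cd34 (-0.38), Klf1 (0.00) and Cebpa (-0.47). The 16 to 25 Early nuclei of 3 libraries limit every statement on genotype.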
